A study of Mus musculus with 4 samples.

Results

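Methionine is turned into the methyl donor S-adenosylmethionine (SAM), used, and either rebuilt or drained toward cysteine by a small set of liver enzymes, and 10 genes of that set were followed here through single-nucleus RNA counts. They are Mat1a, Mat2a, Mat2b, Gnmt, Ahcy, Cbs, Cth, Mtr, Nnmt and Pemt, taken by symbol from the 32285 genes of the deposited tables, where each symbol was found on a single row. The nuclei came from non-tumor liver of male mice given diethylnitrosamine (DEN, which causes liver tumors) at 25 mg/kg when 14 days old and sampled at 12 months. Of the 4 libraries, 2 are labelled Brca1-KO and 2 are labelled Brca1-WT, and DEN, sex, age and tissue are shared by all of them. Brca1 encodes a DNA repair protein, and the labels give neither the promoter nor the Cre that would have removed it, nor the exons lost. The libraries are called biological replicates in the labels, with no more on the mice behind them, so a p-value here covers the spread between 4 samples.

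Brca1 itself gave 18.6 and 5.78 CPM, the unique molecular identifiers (UMIs) of a gene per 1000000 of all genes, in hepatocyte-like nuclei of libraries labelled Brca1-KO, replicates 1 and 2, against 13.4 and 12.4 in those labelled Brca1-WT. Replicate 2 was the lowest of the 4 and replicate 1 was the highest, so replicate 1 did not follow its label. These are 3′ counts, and the sources used here do not say whether they fall in the deleted part, so the level does not settle the label.

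As background, methionine adenosyltransferase makes SAM, and its catalytic subunit comes in a liver form, the product of Mat1a, and a general form, the product of Mat2a, which pairs with the regulatory subunit encoded by Mat2b. Methyltransferases spend SAM and release S-adenosylhomocysteine, which the product of Ahcy splits into adenosine and homocysteine. Homocysteine then has 2 fates: methionine synthase, encoded by Mtr, or betaine-dependent enzymes rebuild methionine from it, while the products of Cbs and Cth carry it through cystathionine to cysteine, the route called transsulfuration. Adult hepatocytes are known for high Mat1a and low Mat2a, and other cells for Mat2a alone.

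Sequences are shown for 2 sets of members. The promoters of Cbs, Ahcy and Gnmt are shown because these genes were all higher at the periportal end of the axis described below, with that of Mat2a, which did not pass the test there. Each is the 250 bases before the annotated start in RefSeq (GRCm38.p6), minus strand, at chr17:31637206-31637455 for Cbs, chr2:155074498-155074747 for Ahcy, chr17:46729166-46729415 for Gnmt and chr6:72439557-72439806 for Mat2a. Capitals mark the following motifs on either strand: TATAAA, known as the TATA box; CCAAT, the CCAAT box; GGGCGG, the GC box; and CACGTG, the E-box. In the Mat2a promoter, 2 of the GC boxes overlap.
Cbs promoter: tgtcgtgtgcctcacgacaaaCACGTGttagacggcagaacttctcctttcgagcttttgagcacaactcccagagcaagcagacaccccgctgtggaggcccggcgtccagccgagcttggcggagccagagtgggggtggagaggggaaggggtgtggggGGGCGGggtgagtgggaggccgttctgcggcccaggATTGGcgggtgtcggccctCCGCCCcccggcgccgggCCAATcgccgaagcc
Ahcy promoter: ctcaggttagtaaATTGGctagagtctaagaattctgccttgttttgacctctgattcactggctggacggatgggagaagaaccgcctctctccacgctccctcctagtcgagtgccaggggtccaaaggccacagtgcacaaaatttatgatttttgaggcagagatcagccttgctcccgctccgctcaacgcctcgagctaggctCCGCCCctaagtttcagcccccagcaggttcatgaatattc
Gnmt promoter: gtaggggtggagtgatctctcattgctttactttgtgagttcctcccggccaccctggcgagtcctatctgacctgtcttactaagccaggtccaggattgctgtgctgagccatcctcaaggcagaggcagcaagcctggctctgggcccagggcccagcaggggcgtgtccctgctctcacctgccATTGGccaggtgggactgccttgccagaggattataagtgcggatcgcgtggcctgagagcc
Mat2a promoter: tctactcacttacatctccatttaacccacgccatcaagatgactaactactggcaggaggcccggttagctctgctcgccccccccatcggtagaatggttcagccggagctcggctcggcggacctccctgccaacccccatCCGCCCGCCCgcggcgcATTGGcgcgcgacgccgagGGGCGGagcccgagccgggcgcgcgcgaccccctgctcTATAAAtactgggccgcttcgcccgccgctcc

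All 4 windows hold a CCAAT box, which 33.85% of the 32851 promoter windows of this length hold. The Mat2a window has a TATA box, as 12.37% of windows do, and the E-box is in the Cbs window, as in 6.02% of windows. GC boxes are in the Cbs, Ahcy and Mat2a windows and in 32.74% of all windows. CG dinucleotides number 21 in the Cbs window, 9 in Ahcy, 6 in Gnmt and 29 in Mat2a, against a median of 6 over all windows. These matches are a description of letters, and no motif is common to the 3 axis genes and missing from Mat2a. Promoter windows were on hand for 7 of the 10 members.

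The second set is a property of Mat2a RNA that none of the other 9 genes has. Its 3′ untranslated region carries 5 copies of TACAGAGAA, the sequence that the methyltransferase encoded by Mettl16 is known to bind in Mat2a RNA. The sites below are 29 bases each, with the motif in capitals, from the Mat2a-202 transcript of GENCODE (GRCm38, minus strand).
Mat2a site at chr6:72434235-72434263: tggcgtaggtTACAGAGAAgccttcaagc
Mat2a site at chr6:72433451-72433479: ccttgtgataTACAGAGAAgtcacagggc
Mat2a site at chr6:72433272-72433300: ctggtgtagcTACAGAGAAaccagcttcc
Mat2a site at chr6:72433157-72433185: atggcgtaagTACAGAGAAgccatcacct
Mat2a site at chr6:72432938-72432966: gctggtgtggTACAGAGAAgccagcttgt

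The motif is in 3.01% of 58797 protein-coding transcripts, and no other gene has a transcript with as many copies as Mat2a. The longest protein-coding transcripts of the other 9 members hold 0 copies.

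After filtering, 4795 and 6260 nuclei remained in libraries labelled Brca1-KO, and 5843 and 6970 in those labelled Brca1-WT. Libraries shared 8 to 17 nuclear barcodes with each other, at most 0.292% of a library. Hepatocyte-like nuclei numbered 2573 and 4091 in libraries labelled Brca1-KO, against 2793 and 4020 in those labelled Brca1-WT, and held 29181315, 38783041, 29362169 and 29612227 UMIs in the same order of libraries. The 12 hepatocyte markers summed to 17120 to 19585 CPM in these nuclei, with none at 0, while the 12 endothelial markers summed to 23.2 to 77.5. The library labelled Brca1-KO replicate 2 stood apart: 88.5% of its hepatocyte-like nuclei lay in clusters 2, 16 and 17, which held 0.078% of those of Brca1-KO replicate 1 and 1.65% and 2.06% of those of Brca1-WT replicates 1 and 2. Most endothelial-like nuclei likewise lay in cluster 6 in that library and in cluster 0 in the other 3. Values by class therefore come from different clusters in that library and in the others.

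Mat1a, the liver form of the SAM-making subunit, gave 3313 and 808 CPM in hepatocyte-like nuclei of libraries labelled Brca1-KO, against 3278 and 3291 in those labelled Brca1-WT. The values of 3 libraries lay close together, and that of Brca1-KO replicate 2 was far below them. Mat2a, the general form, gave 81.7 and 89.5 in libraries labelled Brca1-KO, against 66.0 and 72.1 in those labelled Brca1-WT, so these groups did not overlap. Mat2b, the regulatory subunit, gave 25.7 and 28.0 in libraries labelled Brca1-KO and 26.6 and 27.7 in those labelled Brca1-WT, a narrow range in which the groups overlapped.

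Among the enzymes that spend SAM, Gnmt, which methylates glycine and takes up surplus SAM, gave 1066 and 318 CPM in libraries labelled Brca1-KO, against 839 and 1032 in those labelled Brca1-WT. Nnmt, which methylates nicotinamide, gave 344 and 105 in libraries labelled Brca1-KO, against 251 and 201 in those labelled Brca1-WT. In both genes Brca1-KO replicate 1 was the highest of the 4 libraries and Brca1-KO replicate 2 the lowest. Pemt, which makes phosphatidylcholine from phosphatidylethanolamine, went another way, with 296 and 387 in libraries labelled Brca1-KO and 369 and 288 in those labelled Brca1-WT.

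Downstream of SAM, Ahcy gave 275 and 149 CPM in libraries labelled Brca1-KO, against 221 and 327 in those labelled Brca1-WT. Cbs, the entry enzyme of transsulfuration, gave 227 and 81.3 in libraries labelled Brca1-KO, against 156 and 196 in those labelled Brca1-WT. Cth, which releases cysteine, gave 461 and 179.9 in libraries labelled Brca1-KO, against 561 and 357 in those labelled Brca1-WT. All 3 were lowest in Brca1-KO replicate 2, and Brca1-KO replicate 1 lay within or above the range of the Brca1-WT libraries. Mtr, on the way back to methionine, gave 27.4 and 36.5 in libraries labelled Brca1-KO and 29.0 and 32.3 in those labelled Brca1-WT, which lay between them.

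**Figure D1:**
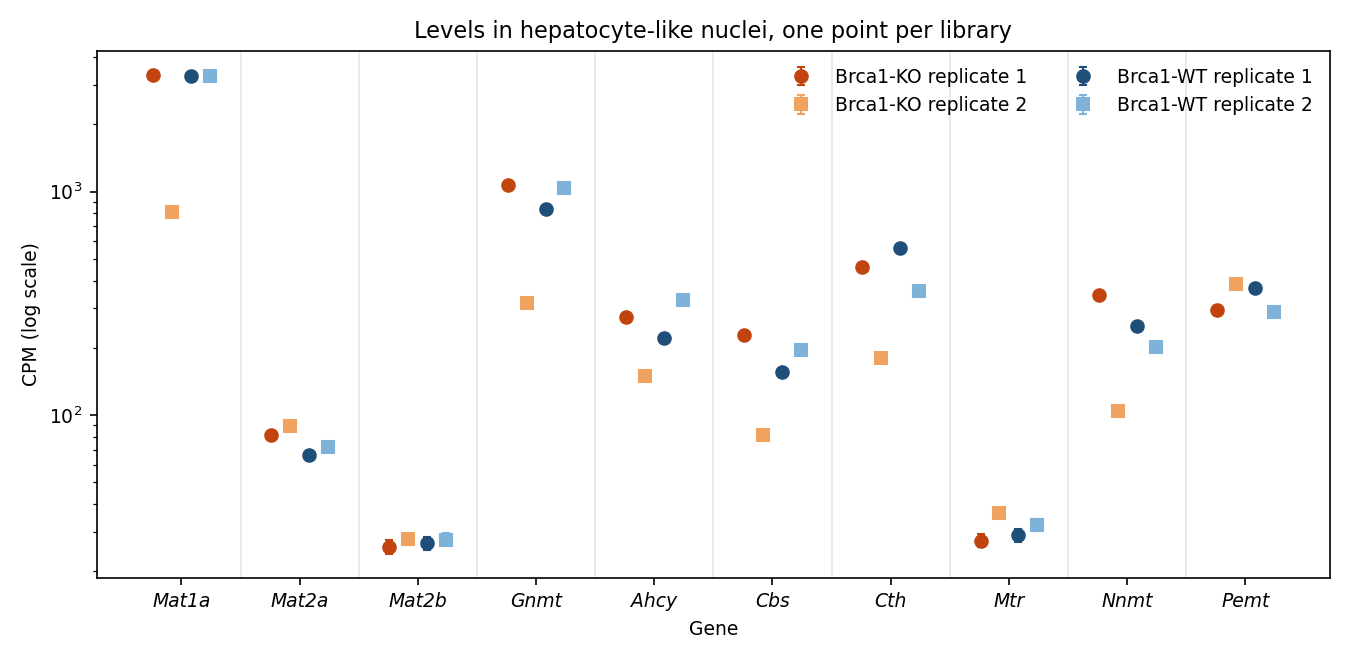
CPM (log scale) of the 10 genes in hepatocyte-like nuclei, with 1 point per library and bars for exact Poisson 95% intervals of the count, most of them smaller than the points. Brca1-KO replicate 2 lies below the other 3 libraries for Mat1a, Gnmt, Ahcy, Cbs, Cth and Nnmt, and Mat2a is higher in both libraries labelled Brca1-KO than in both Brca1-WT libraries.

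The 10 genes thus split into those that were low in Brca1-KO replicate 2 and those that were not. That library was the lowest of the 4 for 6 members (Mat1a, Gnmt, Ahcy, Cbs, Cth and Nnmt) and the highest for the other 4. It was lowest for 38.4%, and highest for 26%, of the 8096 genes that averaged at least 10 CPM. Against the mean of the other 3 libraries it held 24.5% of Mat1a, 32.5% of Gnmt, 39.1% of Cth, 39.4% of Nnmt, 42.1% of Cbs and 54.2% of Ahcy. Of the 10 members, 5 were under 50% of that mean in this library, where 3.9% of the 8096 genes were, and in each of the other 3 libraries 0 members were. The 10 genes were chosen with earlier results of these data known, so this contrast is a description and no test. The genes that stayed near the other libraries were the general SAM-making pair, Mat2a at 122% and Mat2b at 105%, with Mtr at 123% and Pemt at 122%. The part of the different clusters in this was not tested. Cluster 8, led by mitochondrially encoded genes, held nuclei of every library (104 and 326 in libraries labelled Brca1-KO, 209 and 435 in those labelled Brca1-WT). Within it Mat1a gave 3457 and 875 CPM in libraries labelled Brca1-KO, against 3514 and 3332 in those labelled Brca1-WT. Gnmt gave 1003 and 295 there in libraries labelled Brca1-KO, against 887 and 1067 in those labelled Brca1-WT. Both genes were lowest in Brca1-KO replicate 2 in that cluster. These values are a description, since the nuclei of the cluster were not matched between libraries in other ways.

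The low Mat1a level of Brca1-KO replicate 2 also showed in the share of nuclei that held a Mat1a UMI. With each nucleus thinned to 1000 UMIs, 94.6% and 53.9% of hepatocyte-like nuclei in libraries labelled Brca1-KO held a Mat1a UMI, against 92.9% and 94.6% in those labelled Brca1-WT (exact Clopper-Pearson 95% interval for Brca1-KO replicate 2, 52.4% to 55.5%). Unthinned, at medians of 9513, 7360, 8809 and 5950 UMIs per nucleus in the same order of libraries, the shares were 99.9%, 96.5%, 99.7% and 99.9%. The thinned share for Gnmt was 64.8% and 27.1% in libraries labelled Brca1-KO, against 54.2% and 62.8% in those labelled Brca1-WT. Endothelial-like nuclei, which should lack Mat1a, held it in 44.4% and 30.6% of thinned nuclei in libraries labelled Brca1-KO and in 43.3% and 43.1% in those labelled Brca1-WT, at unthinned medians of 1512, 1255, 1851 and 1402 UMIs. Nuclei too shallow for thinning numbered 7, 20, 33 and 12 in the hepatocyte-like class and 198, 163, 89 and 374 in the endothelial-like class, in the same order of libraries. Shares in hepatocyte-like nuclei were above these in every library. The intervals cover counting error only, and the part of free RNA in these shares was not tested.

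By genotype, no member passed the test in hepatocyte-like nuclei. With edgeR's quasi-likelihood test and Benjamini-Hochberg adjustment, 0 of 10 members and 0% of 15113 genes were called, and 0 members reached an unadjusted p below 0.05, as 3.3% of genes did. DESeq2 called 23 genes and 0 members. Mat1a differed by -0.65 on the log2 scale (SE 0.66, adjusted p = 0.989 with edgeR), Cth by -0.48 (SE 0.49), Gnmt by -0.41 (SE 0.57), Ahcy by -0.33 (SE 0.36) and Cbs by -0.16 (SE 0.48). The error of each was at least as large as the estimate, and in each gene the 2 libraries labelled Brca1-KO lay far apart. Mat2a differed by 0.36 (SE 0.18, adjusted p = 0.989 with edgeR). It was the only member of the 10 whose groups did not overlap, higher in both libraries labelled Brca1-KO. Groups did not overlap for 31.3% of genes tested, with 11.5% higher and 19.7% lower in both libraries labelled Brca1-KO. Mtr, Pemt, Mat2b and Nnmt differed by 0.12 (SE 0.23), 0.11 (SE 0.27), 0.04 (SE 0.18) and 0.02 (SE 0.54). The members' median difference was -0.07, against -0.01 for all genes.

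These estimates changed with the library left out. Without Brca1-KO replicate 2 the Mat1a difference was 0.03 and that of Gnmt 0.20, while without Brca1-KO replicate 1 they were -1.92 and -1.46, with edgeR adjusted p-values of 0.101 and 0.153 and the lone library assumed to vary like the Brca1-WT pair. Mat2a stayed between 0.26 and 0.47 when any of the 4 libraries was left out, and was called in none of these fits.

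The ratio of Mat1a to Mat2a UMIs needs no scaling between libraries, and only its differences between libraries, zones and classes are read, not its size. In hepatocyte-like nuclei it was 40.5 and 9.03 in libraries labelled Brca1-KO, against 49.7 and 45.6 in those labelled Brca1-WT. Both libraries labelled Brca1-KO were lower than both Brca1-WT libraries, Brca1-KO replicate 1 by a little and Brca1-KO replicate 2 by far. On the log2 scale the mean was 4.26 ± 1.53 in libraries labelled Brca1-KO and 5.57 ± 0.09 in those labelled Brca1-WT (SD, n = 2 each). The difference was -1.32 (2-sided exact permutation p = 0.33, the smallest that 2 libraries against 2 allow). Without Brca1-KO replicate 2 it was -0.23, and without Brca1-KO replicate 1 it was -2.40.

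**Figure D2:**
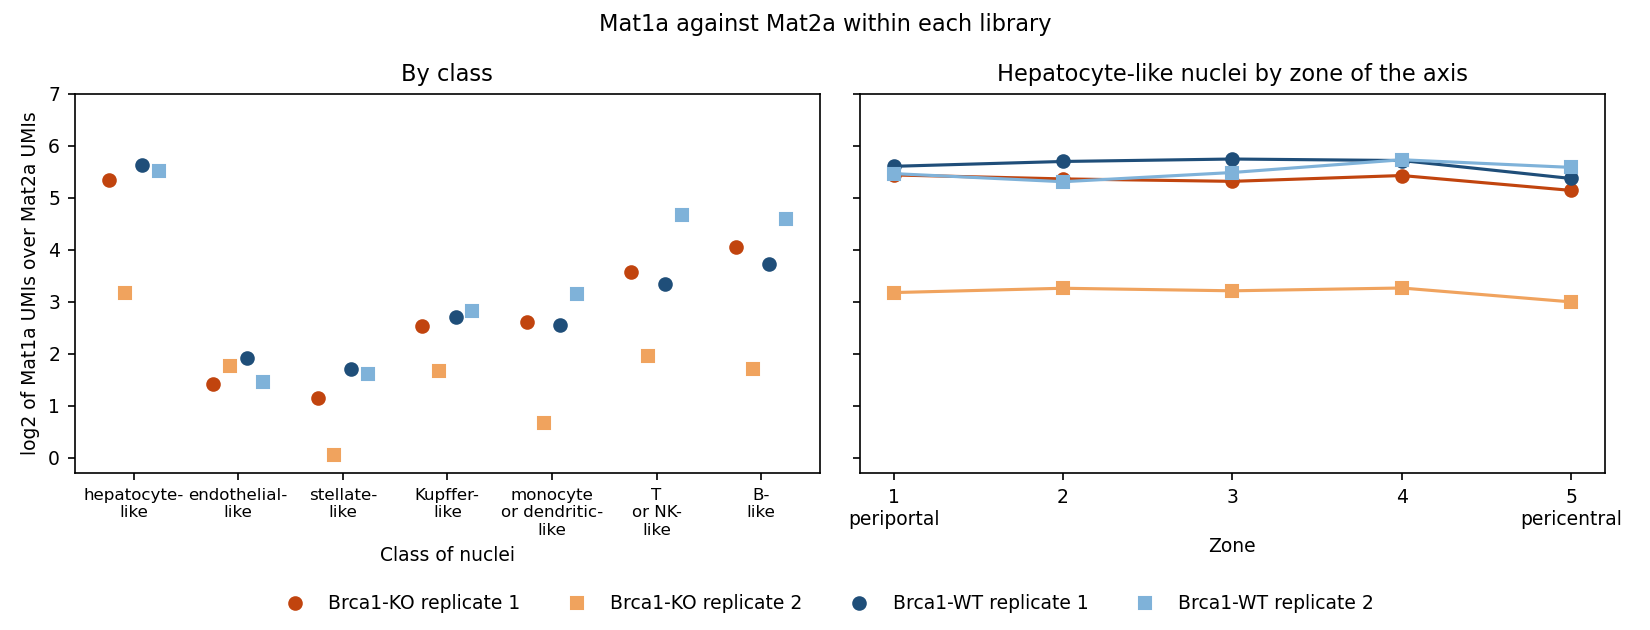
The log2 ratio of Mat1a UMIs to Mat2a UMIs in each library, by class of nuclei on the left and by zone of the portal-central axis in hepatocyte-like nuclei on the right. Over the zones Brca1-KO replicate 2 lies between 2.996 and 3.26 and the other 3 libraries between 5.14 and 5.74.

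Along the liver plate, hepatocytes near the portal vein (periportal) and near the central vein (pericentral) divide metabolic work, and Cbs, Ahcy and Gnmt were higher on the periportal side here. Nuclei were ordered within each library by 12 pericentral and 11 periportal markers, none of them a member, and divided into 5 zones of equal size, from zone 1 (periportal) to zone 5 (pericentral). These outer zones differed by 5.38 to 6.14 on the log2 scale for the pericentral marker Glul and by -7.09 to -5.54 for the periportal marker Cyp2f2, over the 4 libraries. The score has no gap at the borders: 228 to 491 nuclei per library lay within 0.1 SD of the border of zone 1, and 144 to 235 within 0.1 SD of that of zone 5. With library as a block, 3 of 10 members were called by edgeR at an adjusted p below 0.05, all of them higher in the periportal zone. The background is high: 26.4% of 12486 genes were called in either direction, close to 3 of 10. Of all genes, 13.5% were called higher periportal and 12.9% higher pericentral.

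Of the 3, Cbs differed most. It gave 194 and 55.3 CPM in the pericentral zone of libraries labelled Brca1-KO and 124 and 168 in that of those labelled Brca1-WT, against 260.3 and 100.2, and 184 and 225, in the periportal zones of the same libraries. Every library was lower on the pericentral side, and the difference was -0.57 on the log2 scale (SE 0.08, edgeR adjusted p = 0.000183), and 16% of tested genes differed by more. Ahcy gave 246 and 119 in the pericentral zone of libraries labelled Brca1-KO and 196 and 297 in that of those labelled Brca1-WT, against 298 and 170.1, and 222 and 344, in the periportal zones. It too was lower on the pericentral side in all 4 libraries, with a difference of -0.30 (SE 0.07, edgeR adjusted p = 0.00497). Of tested genes, 34.5% differed by more than Ahcy. Gnmt gave 912 and 298 in the pericentral zone of libraries labelled Brca1-KO and 714 and 925 in that of those labelled Brca1-WT, against 1164 and 322, and 889 and 1069.6, in the periportal zones. Its difference was -0.25 (SE 0.07, edgeR adjusted p = 0.0132), and 40.3% of tested genes differed by more. In 3 of the 4 libraries the Gnmt level of zones 1 to 4 lay above that of zone 5 with no steady slope between them, and in Brca1-KO replicate 2 zone 2 was as low as zone 5.

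The calls differ in how firmly they held. Cbs was called under every alternative run. Ahcy was not called by edgeR with nuclei thinned to 1000 UMIs (adjusted p = 0.0797) or with pericentral markers alone (adjusted p = 0.0543). Gnmt was not called by edgeR without Brca1-KO replicate 1 (adjusted p = 0.0944), without Brca1-WT replicate 1 (0.0668), with 3 zones in place of 5 (0.119) or with pericentral markers alone (0.15). Of the other members, edgeR called Cth in thinned nuclei (-0.54, adjusted p = 0.00278), Pemt with pericentral markers alone (0.17, adjusted p = 0.0471), and Mat1a and Nnmt under the alternatives given with their values in the next paragraph.

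The other 7 members were not called. Mat1a differed by -0.18 (SE 0.08, edgeR adjusted p = 0.117) and Nnmt by -0.22 (SE 0.09, edgeR adjusted p = 0.0925), each lower on the pericentral side in 3 of 4 libraries. Both passed, at 0.0305 and 0.0116, when genes of low count were kept in the edgeR fit, and Nnmt also passed, at 0.0329, without Brca1-WT replicate 2. Cth differed by -0.41 with a wide error (SE 0.29, edgeR adjusted p = 0.405). Its libraries disagreed: the pericentral zone minus the periportal zone was 0.06 and -0.46 in libraries labelled Brca1-KO, and -1.27 and 0.02 in those labelled Brca1-WT. Mtr and Mat2b leaned pericentral by 0.17 (SE 0.10) and 0.15 (SE 0.10), Pemt by 0.03 (SE 0.06), and Mat2a differed by -0.03 (SE 0.07). Pemt had its highest level in zone 3 or 4 in all 4 libraries, for example 439 CPM in zone 3 of Brca1-KO replicate 2, where zone 1 had 357. The members' median difference was -0.20, against 0.00 for all genes.

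**Figure D3:**
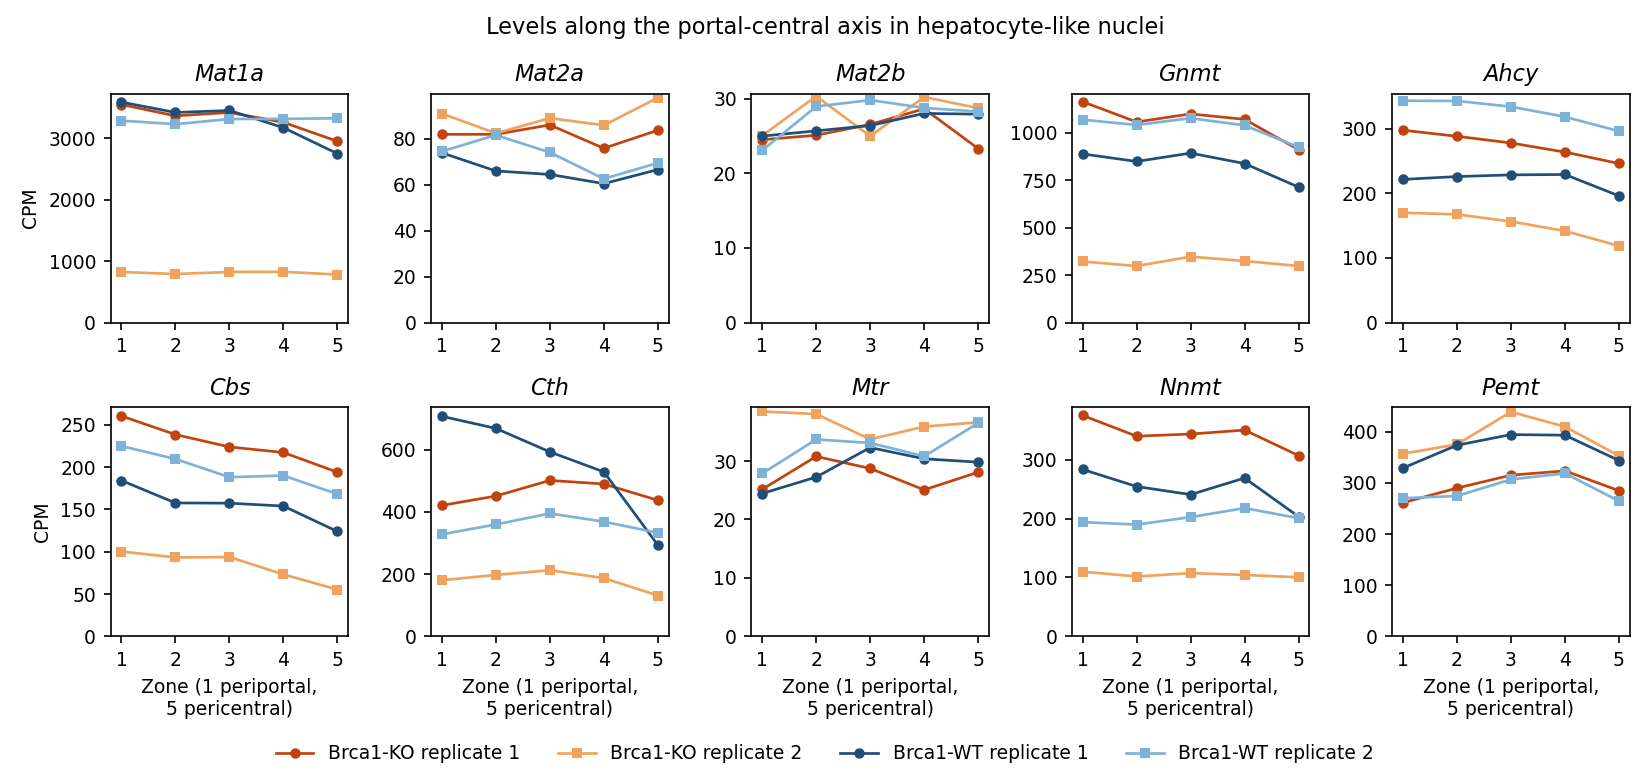
CPM of each gene in zones of hepatocyte-like nuclei, from 1 (periportal) to 5 (pericentral), with a line for each library and each vertical axis starting at 0. Cbs and Ahcy are lower at zone 5 than at zone 1 in all 4 lines, Cth is far lower at zone 5 than at zone 1 in Brca1-WT replicate 1 alone, and Brca1-KO replicate 2 keeps its distance for Mat1a and Gnmt in every zone.

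The portal-central differences were not called as different between genotypes. With edgeR, the interaction called 0 of 10 members and 0% of 12486 genes, with 0 members and 3.2% of genes at an unadjusted p below 0.05, and DESeq2 called 0 members. In Brca1-KO replicate 2 Mat1a was low from end to end, at 780.1 to 824 CPM over the zones, where the other 3 libraries ranged between 2746 and 3584. The Mat1a to Mat2a ratio differed between outer zones by -0.15 ± 0.18 on the log2 scale (SD, n = 4 libraries), lower pericentral in 3 of 4, and an exact sign-flip test over libraries gave p = 0.25, where 0.125 is the smallest it allows.

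In the other cell classes the 10 genes fell into 2 kinds. Free RNA from hepatocytes enters droplets of other cells, so each gene's level was set beside the 12 hepatocyte markers. Each marker's level in another class was taken as a percentage of that in hepatocyte-like nuclei of the same library. The median of the 12 percentages was 17.3% to 60.6% over the classes and libraries. The classes were drawn from the same nuclei, so these levels are a description with no test. Mat1a was at 18.9% and 52.5% of its hepatocyte-like level in endothelial-like nuclei of libraries labelled Brca1-KO and at 18.4% and 19.97% in those labelled Brca1-WT. The marker median there was 24.8% and 45.1% under the Brca1-KO label and 24.8% and 26.8% under the Brca1-WT label. In stellate-like nuclei, which store vitamin A, Mat1a was at 13.6% and 23.5% in libraries labelled Brca1-KO and 15.6% and 15.9% in those labelled Brca1-WT. Mat1a, Gnmt and Nnmt lay within the range of single hepatocyte markers in every library of all 6 other classes, and Ahcy, Cbs and Cth within or below it. That range was wide, for example 27.3% to 152% in endothelial-like nuclei of Brca1-KO replicate 2. A level within it does not separate a gene's own RNA from free RNA. Pemt was below every marker in all 4 libraries of the endothelial-like, stellate-like and Kupffer-like nuclei, and above the range in 1 library of B-like nuclei, Brca1-KO replicate 1, at 94.1%. Cbs was below every marker in all 4 libraries of Kupffer-like nuclei, at 9.88% to 20.4%, where Pemt was at 6.74% to 12.02%.

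Mat2a, Mat2b and Mtr were the other kind. Mat2a gave 203 and 184 CPM in stellate-like nuclei of libraries labelled Brca1-KO and 156 and 172 in those labelled Brca1-WT, from 206% to 249% of the hepatocyte-like level of the same library, above every marker. In endothelial-like nuclei it gave 233 and 125 in libraries labelled Brca1-KO and 160.3 and 238 in those labelled Brca1-WT, and all 4 were above hepatocyte-like nuclei. In Brca1-KO replicate 2 of these nuclei, Mat2a (140.3%), Mat2b (95.6%) and Mtr (149%) all lay within the marker range, whose top, the marker Apoa1, was at 152% there, while in the other 3 libraries all 3 genes lay above it. Kupffer-like nuclei, the resident macrophages of the liver, had Mat2a at 116% to 141%. Mtr had its highest level in them: 171 and 124 CPM in libraries labelled Brca1-KO and 183 and 162 in those labelled Brca1-WT, 340.2% to 631% of the hepatocyte-like level. The Mtr values of Kupffer-like nuclei were above those of all 6 other classes in every library. Mat2b was at 118% to 130.3% in stellate-like nuclei on 31 to 48 UMIs, and at 67.3% to 138% in Kupffer-like nuclei on 17 to 25 UMIs, where Brca1-KO replicate 2 was the low value and lay within the marker range. In monocyte or dendritic-like nuclei Mat2a was at 93.7% to 178%, Mat2b at 81.3% to 124% and Mtr at 139% to 349%, above every marker of the same library but on 2 to 22 UMIs. T or NK-like nuclei had Mat2a at 79.3% to 110.02%, Mat2b at 147% to 283% and Mtr at 122% to 223% on 10 to 28 UMIs, with Mat2a and Mtr of Brca1-KO replicate 2 within the marker range. In B-like nuclei Mat2a was at 77.98% to 163%, Mat2b at 81.1% to 149% and Mtr at 137% to 253% on 3 to 28 UMIs, with Mat2b of Brca1-KO replicate 1 and Mat2a of Brca1-WT replicate 2 within it. These 3 genes were above every marker in most libraries of each class, and within the range in the others.

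**Figure D4:**
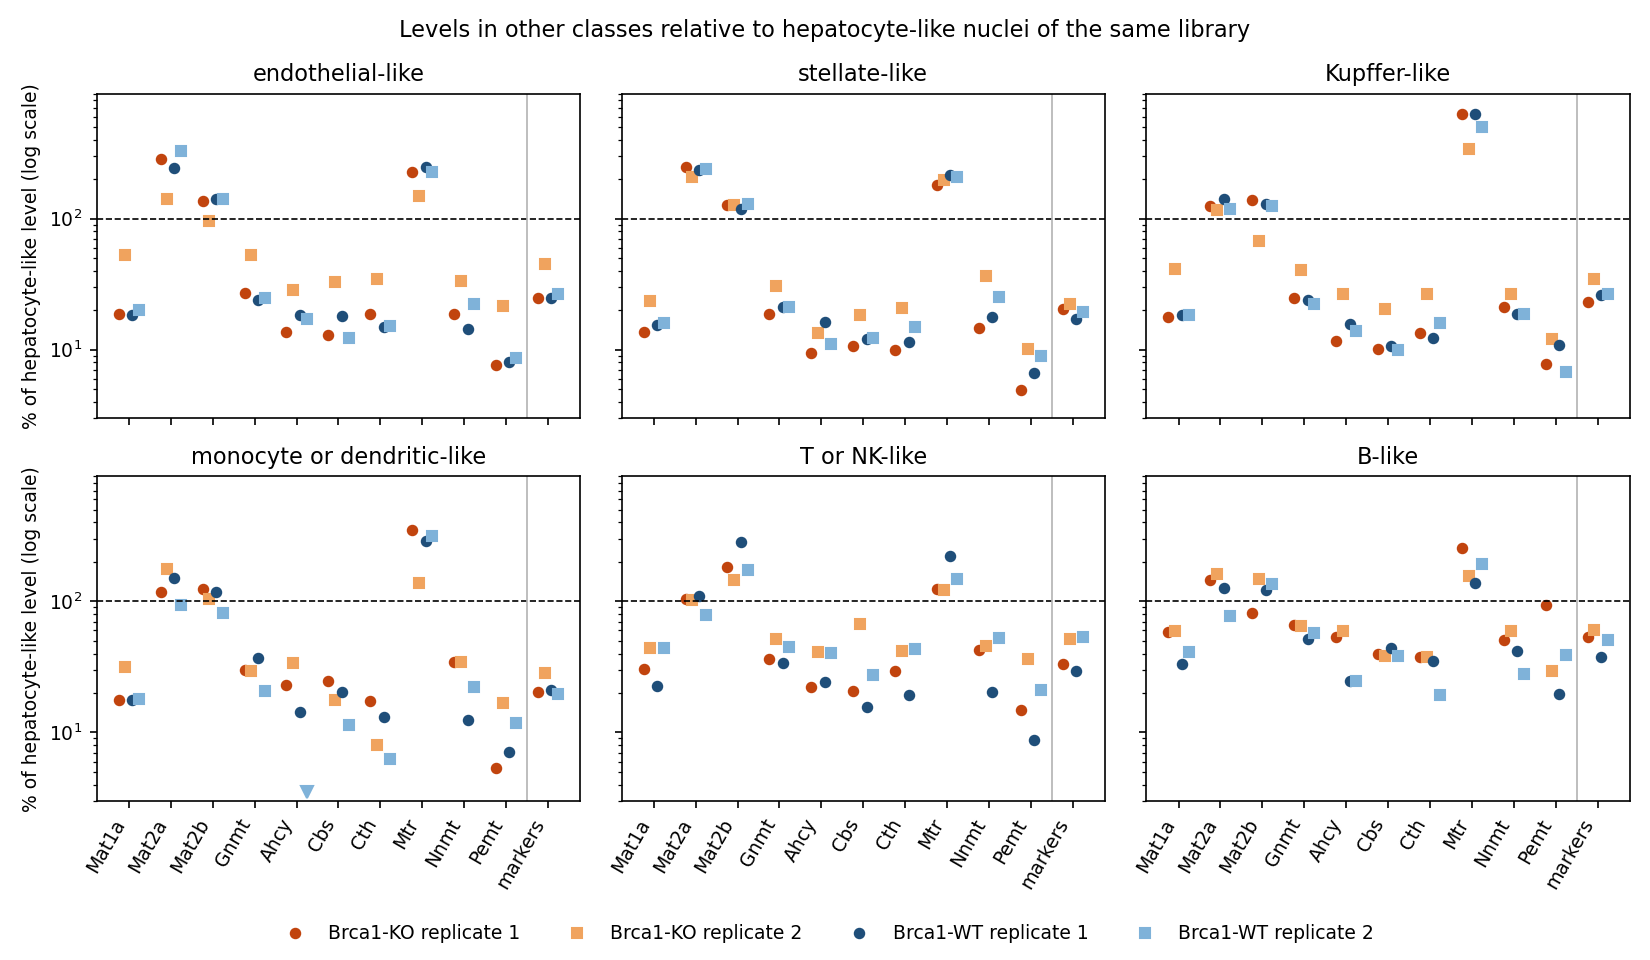
Level of each gene in 6 other classes as a percentage of its level in hepatocyte-like nuclei of the same library (log scale, dashed line at 100%). The last column of each panel is the median percentage of the hepatocyte markers. Mat2a, Mat2b and Mtr lie at 67.3% or more, the other 7 genes lie below the dashed line, and the triangle stands for a count of 0 (Ahcy in monocyte or dendritic-like nuclei of Brca1-WT replicate 2).

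The Mat1a to Mat2a ratio followed from both. It was 2.67 and 3.38 in endothelial-like nuclei of libraries labelled Brca1-KO and 3.77 and 2.76 in those labelled Brca1-WT, and 2.22 and 1.03 in stellate-like nuclei of libraries labelled Brca1-KO against 3.27 and 3.05 in those labelled Brca1-WT. In every library both classes lay below hepatocyte-like nuclei. The part of free RNA in the Mat1a counts of these classes was not tested, and any such part raises the ratio. In T or NK-like and B-like nuclei, the classes with the highest marker medians in each library, it reached 25.4 and 24.1 in Brca1-WT replicate 2. In Brca1-KO replicate 2 the ratio was 3.89 and 3.29 in these classes.

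By genotype, edgeR called 0 members over the 6 other classes. Of the genes tested, 0% were called in endothelial-like (11161), stellate-like (9721), Kupffer-like (8297), T or NK-like (6036) and B-like (4023) nuclei, and 0.0296% in monocyte or dendritic-like nuclei (3378), where 4 members could be tested (9 in B-like nuclei, all 10 in the others). At an unadjusted p below 0.05 stood Mat2a and Pemt in B-like nuclei, with log2 differences of 0.94 (SE 0.40) and 1.13 (SE 0.45) and adjusted p-values of 0.67 with edgeR, on 9 to 40 UMIs a library. By p they ranked 221 and 159 among the 4023 genes tested there, and the share of those genes below 0.05 was not counted. DESeq2 called 0 members. Without Brca1-KO replicate 1, edgeR made 6 calls: Mat1a in stellate-like, Kupffer-like and B-like nuclei, Gnmt in stellate-like and B-like nuclei, and Pemt in endothelial-like nuclei. These were 6 of 54 member tests, where the same fit called 3.78% of all tests over the 6 classes (1819 of 48071). By class that share was 4.98% in endothelial-like, 4.04% in stellate-like, 5.72% in Kupffer-like, 1.12% in monocyte or dendritic-like, 1.09% in T or NK-like and 2.84% in B-like nuclei. In that fit Brca1-KO replicate 2 stands alone for its label and is assumed to vary like the Brca1-WT libraries. The Mat1a and Gnmt levels of these classes lay within the range of the hepatocyte markers, and were low in Brca1-KO replicate 2 as its hepatocyte-like levels were. Pemt in endothelial-like nuclei went the other way, at 83.3 CPM in Brca1-KO replicate 2 against 24.7 to 29.8 in the Brca1-WT libraries. In Brca1-KO replicate 2 this was 21.5% of its hepatocyte-like level, below every marker, where the marker median was 45.1%. In Brca1-WT replicates 1 and 2 it was 8.07% and 8.58%, where the marker medians were 24.8% and 26.8%. The part of free RNA in these calls was not tested.

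Around the members, 41 genes of 5 lists of neighbouring steps were read from the same fits. Mettl16, whose product is known to bind the motif shown above, gave 36.4 and 31.2 CPM in hepatocyte-like nuclei of libraries labelled Brca1-KO, against 41.8 and 36.5 in those labelled Brca1-WT (log2 difference -0.17, SE 0.18, edgeR adjusted p = 0.989). Both libraries labelled Brca1-KO were lower than both labelled Brca1-WT, as for 19.7% of genes tested, Brca1-KO replicate 1 by very little. By genotype edgeR called 0 of 40 tested, with a median difference of 0.09 against -0.01 for all genes. Where 3.3% of all genes had an unadjusted p below 0.05 with edgeR, 2 of the 40 did. Those were Bhmt2 and Bhmt, both homocysteine methyltransferases of the liver. Bhmt2 gave 188 and 161 CPM in libraries labelled Brca1-KO, against 306 and 254 in those labelled Brca1-WT (-0.63, SE 0.20, edgeR adjusted p = 0.989). Its groups did not overlap, and 19.7% of genes tested were likewise lower in both libraries labelled Brca1-KO. Bhmt, which uses betaine, gave 726 and 272 in libraries labelled Brca1-KO, against 1924 and 1209.7 in those labelled Brca1-WT (-1.62, SE 0.53, edgeR adjusted p = 0.989). In contrast to Mat1a and Gnmt, both remethylation genes were lower in Brca1-KO replicate 1 too.

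In the lists as given, the other genes of smallest p were Ahcyl2, a relative of Ahcy (log2 difference 0.39, SE 0.18), Gclm, the modifier subunit of the first enzyme of glutathione synthesis (0.62, SE 0.32), and Sqor, which oxidises sulfide (0.44, SE 0.24). They were followed by Inmt, an amine methyltransferase (0.83, SE 0.88), and by Adi1 and Apip of the methionine salvage route (0.70, SE 0.42, and -0.34, SE 0.22), each with an edgeR adjusted p of 0.989. Inmt gave 10.6 and 75.6 CPM in libraries labelled Brca1-KO, against 23.5 and 27.8 CPM in those labelled Brca1-WT. The groups overlapped, and the Inmt estimate rests on Brca1-KO replicate 2.

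Along the axis, 16 of 39 tested pathway genes were called by edgeR, 6 higher pericentral and 10 higher periportal, with the background of 26.4% given above. Called higher pericentral and higher periportal were 1 and 2 of 9 remethylation genes, 1 and 3 of 7 methyltransferases, 1 and 0 of 4 genes of S-adenosylhomocysteine handling, 1 and 2 of 9 salvage and polyamine genes, and 2 and 3 of 10 genes of cysteine, taurine and glutathione. The sulfur genes lay at both ends. Csad, which makes the taurine precursor hypotaurine, was higher pericentral (log2 difference 2.54, SE 0.10, edgeR adjusted p = 1.44e-07). Sqor and Ethe1, which handle sulfide in mitochondria, were higher periportal (-1.15, SE 0.07, and -0.68, SE 0.13), as was Gss, the last enzyme of glutathione synthesis (-0.35, SE 0.07). Among SAM users, As3mt, which methylates arsenic, was higher periportal (-0.80, SE 0.08), with Hnmt and Tpmt (-0.44, SE 0.12, and -0.36, SE 0.10). Bhmt2 and Sardh were higher periportal (-0.23, SE 0.06, and -0.26, SE 0.06), and Chdh, which makes betaine aldehyde from choline, was higher pericentral (0.32, SE 0.06). In polyamine synthesis, Amd1, which decarboxylates SAM, was higher pericentral (0.51, SE 0.11), and Odc1, which makes putrescine, higher periportal (-0.44, SE 0.14), as was Mtap of the salvage route (-0.41, SE 0.13). Tst, a sulfurtransferase, and Ahcyl1, a relative of Ahcy, were higher pericentral (0.51, SE 0.13, and 0.29, SE 0.07). The interaction called 0 of these 39 genes, with 1 at an unadjusted p below 0.05.

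Genes whose pattern was most like a member's were sought over 20 sums (4 libraries by 5 zones, each library's mean removed), among 7564 genes. The sums share their libraries and depth, so r is a description. Ahcy ran closest to Hykk (r = 0.977) and Nrbp2 (0.96), and Cbs to Aldh1l1 and Azgp1 (0.963 each). Pemt ran with Ces1b (0.929) and Ccdc171 (0.922), and Cth with Igfbp2 (0.892) and Cps1 (0.881), of which Cps1 is a periportal marker of the axis score. Mat1a and Gnmt both had Slc38a4, an amino acid transporter gene, as the nearest gene (0.892 and 0.844), with Lpin1 (0.851) and Sema4g (0.842) next, and Nnmt ran with Mat1a itself (0.812) and Slc38a4 (0.799). The nearest genes to the other 3 were, for Mat2a, Glcci1 (0.837) and Fam162a (0.774), for Mat2b, Dennd6b (0.781) and Lrit1 (0.768), and for Mtr, Rap1b and Abce1 (0.762 each).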

How the data were processed

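The 10 genes and the lists around them were chosen with earlier results of these data known. The deposited values were raw UMI counts per gene and barcode from Cell Ranger 6.0.0, per the file headers, with no normalization. The submitters' processing notes name GRCh38, a human build, while the gene identifiers are mouse, and the mouse build, the use of intronic reads and the use of strand are not stated in the sources used here. The labels give the molecule as genomic DNA. Promoter and site coordinates come from the reference tables (RefSeq, GRCm38.p6, and GENCODE, GRCm38), not from the counts. All gene symbols and identifiers were used as deposited.

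Nuclei had to show 500 genes or more and no more than 5% of UMIs from mitochondrially encoded genes, and Scrublet (scanpy 1.11.5, expected rate 0.06) removed 2.99% to 11.3% of them per library as doublets, which left 23868 of 26591 barcodes. The libraries held 36662067 and 45076257 UMIs under the Brca1-KO label and 45638888 and 40077856 under the Brca1-WT label. Nuclei were clustered together without batch correction (2000 variable genes, none of them a member, 30 principal components, 15 neighbours, Leiden resolution 1, 20 clusters) and named from fixed markers, needing 3 detected markers and a score 1.5 times that of the next class. This scoring rule was chosen with the clusters in view. Of the classes, 7 had at least 30 nuclei in every library and were tested.

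UMIs were summed per library and class, or per library and zone. Levels are CPM, the UMIs of a gene per 1000000 UMIs of that sum. Sums were fitted over all genes with edgeR 4.0.16 (quasi-likelihood, robust, TMM, filterByExpr) in R 4.3.3, with Benjamini-Hochberg adjustment at 0.05 and library as a block along the axis, and again with DESeq2 1.42.0. The axis markers are left out of its background counts. Portal-central differences per library add 0.5 UMIs to each count. Intervals are exact Poisson or Clopper-Pearson 95% intervals. The fits were tested on simulated data. All 10 members are named, with the 2 genes of smallest unadjusted p by genotype from each list, the list genes called along the axis being added after their values were seen. A gene that this rule takes is not reported here. Replicate numbers are shared by both labels but no source ties them to a litter or day, so the fits by genotype have no block.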

Additional observations from a re-analysis of the deposited data

Results flagged for a closer look

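The portal-central difference of Mat2a had opposite signs under the 2 labels. The pericentral zone minus the periportal zone was 0.03 and 0.11 on the log2 scale in libraries labelled Brca1-KO, and -0.15 and -0.10 in those labelled Brca1-WT. The mean under the Brca1-KO label was higher by 0.194. Both libraries of each label had the same sign, but Mat2a was flagged for its opposite signs, so this is no separate evidence. The share of all genes with such a pattern was not counted. In Brca1-KO replicate 1 the periportal zone had 81.9 CPM (Poisson interval 74.9 to 89.4). Its pericentral zone had 83.7 CPM (76.0 to 91.9), so no direction is shown there. The intervals of the outer zones overlapped in each of the other libraries too. The edgeR interaction was 0.21 (SE 0.13, adjusted p = 1) and did not pass. The depth behind these values was 355 to 844 Mat2a UMIs per zone and library.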

How the results depend on the processing

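No member was called by genotype in hepatocyte-like nuclei, or for the interaction, under any alternative run. Along the axis 5 members were called with genes of low count kept, and 2 to 4 when a library was left out. The main fit called 3 of 10 members and 26.4% of all genes. The share of all genes in those alternative fits is not given here, so these counts are not read against it. In other classes the calls ranged between 0 and 6 when a library was left out. With the replicate block, edgeR called 0 members and 0 genes by genotype in hepatocyte-like nuclei and other classes and for the interaction, and the pairs of the log2 Mat1a to Mat2a ratio differed by -0.29 and -2.34 (mean -1.32). The difference of replicate 1 minus replicate 2 under the Brca1-KO label was correlated with that under the Brca1-WT label over 8096 genes. It gave r = -0.144. Brca1-KO replicate 2 stood apart from the other libraries, so this value cannot show whether same-numbered samples are paired. The crossed pairing, added after seeing the data, called 0 members and 0 genes. The ratio difference was -1.16 in thinned nuclei and between -2.40 and -0.23 when a library was left out.

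Signs of differences that were not called turned in these cases, of which the cause was not tested. By genotype, Nnmt was -0.192 with the replicate block and with the crossed pairing and -0.022 without the hepatocyte-like cluster that Gpc3 helps to define, and Mat2b was -0.043 in thinned nuclei. When a library was left out, the genotype differences ranged from -1.925 to 0.03 for Mat1a, -0.061 to 0.14 for Mat2b, -1.46 to 0.204 for Gnmt, -0.785 to 0.023 for Ahcy, -1.016 to 0.387 for Cbs, -1.25 to 0.027 for Cth, -0.14 to 0.351 for Mtr, -1.012 to 0.627 for Nnmt and -0.132 to 0.338 for Pemt, with the ends set by the libraries labelled Brca1-KO. Along the axis, Mat2a was 0.004 in thinned nuclei and -0.088 to 0.022 when a library was left out, and Pemt was -0.015 with periportal markers alone. The interaction was -0.101 for Gnmt, 0.123 for Ahcy, -0.363 for Nnmt and -0.112 for Pemt in thinned nuclei, and -0.027 for Nnmt with 3 zones. When a library was left out it ranged from -0.2 to 0.251 for Mat1a, -0.303 to 0.003 for Mat2b, -0.093 to 0.185 for Gnmt, -0.332 to 0.065 for Cbs, -0.23 to 1.109 for Cth and -0.274 to 0.304 for Nnmt. Of the other values of single members under alternatives, 104 by genotype, 106 along the axis and 96 for the interaction kept their direction and their side of the threshold.

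Counts over all genes also moved. By genotype in hepatocyte-like nuclei DESeq2 called 23 genes, edgeR 2 with genes of low count kept and 30 without Brca1-KO replicate 1, against 0. Over the other classes edgeR called 169 with genes of low count kept, 1819 without Brca1-KO replicate 1, 127 without Brca1-KO replicate 2 and 6 without either Brca1-WT library, against 1. Along the axis 1303 genes were called in thinned nuclei, against 3315 with the markers counted. The interaction called 49 genes with those of low count kept, 168 without Brca1-KO replicate 1, 12 without Brca1-KO replicate 2 and 1 without Brca1-WT replicate 2, against 0. Depth limits Mat2b and Mtr most, with 751 to 1415 UMIs per library in hepatocyte-like nuclei, and most members in monocyte or dendritic-like nuclei, where 4 of 10 could be tested.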

Other observations

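Among hepatocyte-like nuclei, cluster 18 had among its 10 leading genes Gpc3, a fetal liver gene known as a marker of hepatocellular carcinoma, and held 150 and 22 nuclei of the Brca1-WT libraries and none of those labelled Brca1-KO. The cluster was drawn from these nuclei, so its levels are a description with no test. Mat1a gave 1816 and 1618 CPM in the cluster, against 3343 and 3301 in the other hepatocyte-like nuclei of the same libraries. Gnmt gave 375 and 439 in the cluster, against 859.9 and 1036 in the other nuclei, and Cth 157 and 139, against 579 and 359. Nnmt gave 33.9 and 5.56 in the cluster, against 260.07 and 202 in the other nuclei, on 42 UMIs and 1 UMI (exact Poisson 95% intervals 24.4 to 45.8 and 0.141 to 31.0 CPM). Both libraries had all 4 genes lower in the cluster. Mat2a gave 82.3 and 83.4 in the cluster, against 65.3 and 72.1 in the other nuclei, and the Poisson interval of the second value (46.7 to 138) includes the level of the other nuclei. Mat2a was thus not lower in these nuclei while Mat1a was at 0.543 and 0.49 of its level elsewhere. Of the remaining members, Mtr was lower too, at 0.49 and 0.516 of its level elsewhere on 18 and 3 UMIs. So were Ahcy (0.467 and 0.593), Cbs (0.649 and 0.735) and Pemt (0.78 and 0.733), while Mat2b was at 1.256 and 0.801.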
